A study of Mus musculus with 14 samples.

Results

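The collagen genes were examined in consensus CUT&Tag peak lists of mouse muscle stem cells (MuSCs) with and without BMP6. The 38 genes encode chains of the fibrillar, network-forming, fibril-associated and membrane-bound collagens, and were taken from the 21757 protein-coding genes of GENCODE on the mouse genome build GRCm39. A peak was assigned to a gene when it overlapped the canonical transcript or the 20 kb on either side of it. The rule uses no measured value.

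CUT&Tag uses an antibody to bring the transposase Tn5 to chromatin, so that DNA is cut and tagged near the bound protein. Antibodies against pSMAD1/5/9, SMAD4 and acetylated lysine 27 of histone H3 (H3K27ac) were used, with 2 biological replicates per antibody and condition, and each pair of replicates was combined into 1 list of reproducible peaks. All cells came from female 9-week-old mice of the genotype C57BL/6N(Tg(Pax7-EGFP)Tajb), a line in which the Pax7 promoter drives a green fluorescent reporter, and were enriched for MuSCs by sorting on that reporter. Both groups were cultured, kept for 6 h without serum but with 200 ng/mL soluble BMP receptor (BMPR-1A-Fc), and then given either 100 ng/mL BMP6 or vehicle, which was 4 mM HCl with 0.1% BSA, for 1 h. Of the 14 samples, 12 entered the 6 lists, while the 2 samples without primary antibody were not analysed here. Vehicle-treated cells are called control cells. The lists of BMP6-stimulated cells held 7339 pSMAD1/5/9, 12860 SMAD4 and 78050 H3K27ac peaks, and those of control cells held 949, 8577 and 67790. Sequencing depth cannot be read from these lists. Peak strength was read as the rank of a peak by signal within its own list, with rank 1 as the strongest. The lists differ in length, so ranks from different lists are not on the same scale. A peak that reached within 2 kb of a transcription start site (TSS) is called a TSS peak. H3K27ac had a TSS peak at 8 of 8 MuSC markers in both conditions, among them Pax7 and Myod1, at 3 of 4 markers of differentiated muscle (Myh1, Ckm and Acta1, not Myh4), and at 0 of 3 haematopoietic and 1 of 4 endothelial markers. Of 8 markers of fibroblasts and fibro-adipogenic progenitors, cells that are rich producers of collagen, 4 had an H3K27ac TSS peak in both conditions, while Pdgfra, Dcn, Lum and Ly6a had none. The part of such cells and of differentiating cells in the results was not tested.

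Collagens are extracellular proteins whose chains wind into a triple helix. Fibrillar collagens such as types I, III and V give tissue its tensile strength, type IV forms the sheet-like network of the basement membrane that encloses each muscle fiber together with its MuSCs, and type VI forms beaded filaments next to it. BMP ligands activate receptor kinases that phosphorylate SMAD1, SMAD5 and SMAD9, which then join SMAD4 and bind DNA, and H3K27ac marks active promoters and enhancers.

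Before the counts, the DNA under 5 pSMAD1/5/9 peaks of BMP6-stimulated cells is given. They are examples from the 17 collagen genes with such a peak and not the 5 strongest, so their motifs need not be typical. The windows are 200 bp long and centred on the summit of the strongest such peak of each gene. They were read from the plus strand of GRCm39, and none overlaps an annotated UTR. Col4a2 holds the strongest site of all 38 genes (chr8:11432491-11432690, intron 4). Col6a3 comes next (chr1:90762638-90762837, intron 1), and Col5a3 has a site early in the gene (chr9:20723904-20724103, summit 2.41 kb from the TSS). Col1a1 has an upstream site (chr11:94819758-94819957), and Col5a1 has a site that was also listed in control cells (chr2:27779244-27779443, intron 1). Capitals mark matches, on either strand, to GGAGCC or GGCGCC (a motif bound by BMP-activated SMADs), GTCTAGAC (the palindromic SMAD motif), CAGCTG (an E-box of the kind bound by MYOD1), TGACTCA or TGAGTCA (bound by AP-1) and ATGGGAA or GTGGGAA (bound by RBPJ, the DNA-binding partner of Notch). A match to one of these may share bases with a match to another.
Col4a2: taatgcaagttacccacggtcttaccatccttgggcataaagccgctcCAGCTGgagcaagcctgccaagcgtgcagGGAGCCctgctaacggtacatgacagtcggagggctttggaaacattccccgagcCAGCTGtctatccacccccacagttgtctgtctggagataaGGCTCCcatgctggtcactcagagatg
Col6a3: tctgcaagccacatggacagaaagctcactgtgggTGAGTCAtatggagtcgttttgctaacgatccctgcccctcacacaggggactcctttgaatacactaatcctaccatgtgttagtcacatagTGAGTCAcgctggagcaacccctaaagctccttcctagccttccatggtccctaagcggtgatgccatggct
Col5a3: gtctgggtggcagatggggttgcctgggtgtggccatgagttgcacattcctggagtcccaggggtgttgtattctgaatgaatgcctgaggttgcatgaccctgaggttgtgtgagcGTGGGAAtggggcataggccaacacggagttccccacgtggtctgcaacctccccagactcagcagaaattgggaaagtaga
Col1a1: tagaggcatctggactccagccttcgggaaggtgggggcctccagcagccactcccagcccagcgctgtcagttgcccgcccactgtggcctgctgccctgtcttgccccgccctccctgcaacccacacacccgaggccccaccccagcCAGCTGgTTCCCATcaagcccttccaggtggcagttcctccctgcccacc
Col5a1: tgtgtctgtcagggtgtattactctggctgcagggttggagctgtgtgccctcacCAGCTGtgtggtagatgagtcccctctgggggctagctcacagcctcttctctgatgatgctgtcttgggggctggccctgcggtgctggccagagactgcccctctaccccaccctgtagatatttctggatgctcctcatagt
The Col4a2 window holds 2 SMAD motifs and 2 E-boxes. The Col6a3 window has 2 AP-1 motifs and no match to the other letters. Neighbouring E-box and RBPJ matches stand in the Col1a1 window, whereas the Col5a3 window has only an RBPJ match and the Col5a1 window only an E-box.

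After BMP6, 17 of the 38 collagen genes had a pSMAD1/5/9 peak, compared with 4 in control cells. These are 44.7% (Wilson 95% interval 30.1 to 60.3%) and 10.5% (4.17 to 24.1%) of the collagen genes, set against 29.1% and 5.97% of all protein-coding genes. All the intervals given here cover counting error over genes or peaks alone. SMAD4 was listed at 23 collagen genes after BMP6, or 60.5% (44.7 to 74.4%), and at 17 in control cells, again 44.7%, where all genes gave 39.3% and 30.8%. H3K27ac was found at the same number of genes in both conditions, 35 of 38 or 92.1% (79.2 to 97.3%), next to 74.8% of all genes after BMP6 and 73.4% in control cells.

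Collagen genes are long, and a long gene has more room for a peak. Their canonical transcripts had a median length of 110001 bp, from 7111 bp for Col10a1 to 414242 bp for Col25a1, while the median of all protein-coding genes was 16274 bp. Among 8500 other genes of similar length, between 21991 and 269928 bp (the 10th and the 90th percentile of the collagen genes), 33% had a pSMAD1/5/9 peak after BMP6 and 7.07% in control cells. Their shares were 46.3% and 35.9% for SMAD4, and 86.2% and 85.1% for H3K27ac. In all 6 lists the share of collagen genes was above that of genes of similar length, but its interval included that share. Counted per Mb of gene and flank, the collagen genes had 4.75 pSMAD1/5/9 peaks after BMP6 and all protein-coding genes had 4.40, and for SMAD4 the densities were 8.31 and 7.59. In control cells the collagen genes had 0.679 pSMAD1/5/9 peaks per Mb and all genes 0.592, while for SMAD4 the collagen genes had fewer, 4.92 against 5.12. For H3K27ac they were 58.2 and 46.4 peaks per Mb after BMP6, and 50.1 and 40.5 in control cells.

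**Figure D1:**
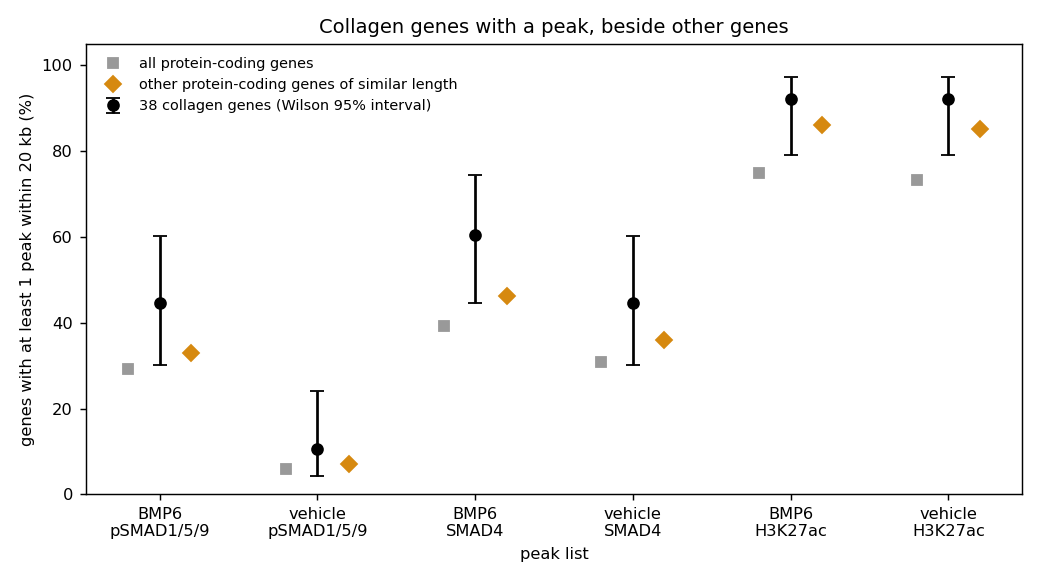
Share of genes with at least 1 peak within 20 kb of the transcript (vertical axis, %), in each of the 6 lists (horizontal axis). Black points are the 38 collagen genes with Wilson 95% intervals, grey squares all protein-coding genes, and orange diamonds other protein-coding genes of similar length, which lie inside the interval in every list.

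BMP6-stimulated and control cells differed most in pSMAD1/5/9. A pSMAD1/5/9 peak after BMP6 but not in control cells was found at 13 collagen genes, 34.2% (21.2 to 50.1%) against 23.5% of all genes and 26.5% of those of similar length, and no collagen gene had one in control cells alone. SMAD4 was listed in both conditions at 16 genes, or 42.1% (27.9 to 57.8%), against 26.5% of all genes and 31.0% of those of similar length. After BMP6 alone it was listed at 7 (18.4%, 9.22 to 33.4%, against 12.8% and 15.3%), and in control cells alone at Col6a1 (2.63%, 0.466 to 13.5%, against 4.24% and 4.82%). Both pSMAD1/5/9 and SMAD4 were listed after BMP6 at 16 genes (42.1%, 27.9 to 57.8%, against 25.4% and 28.7%). Of the genes with pSMAD1/5/9 after BMP6, Col4a6 was the one without a SMAD4 peak. The remaining 13 genes (34.2%, 21.2 to 50.1%) had no peak in any of the 4 SMAD lists, against 53.9% of all genes and 45.9% of those of similar length. In each of these counts the share of genes of similar length was inside the interval of the collagen genes. They were the fibrillar chains Col2a1, Col5a2 and Col11a1, the type IV chains Col4a4 and Col4a5, the short-chain Col10a1, the fibril-associated Col9a1, Col12a1, Col14a1, Col16a1 and Col22a1, and the transmembrane Col17a1 and Col23a1. Since a list is 1 consensus per condition, a peak that is missing from it was not called reproducibly, and binding below that threshold cannot be read from the list.

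**Figure D2:**
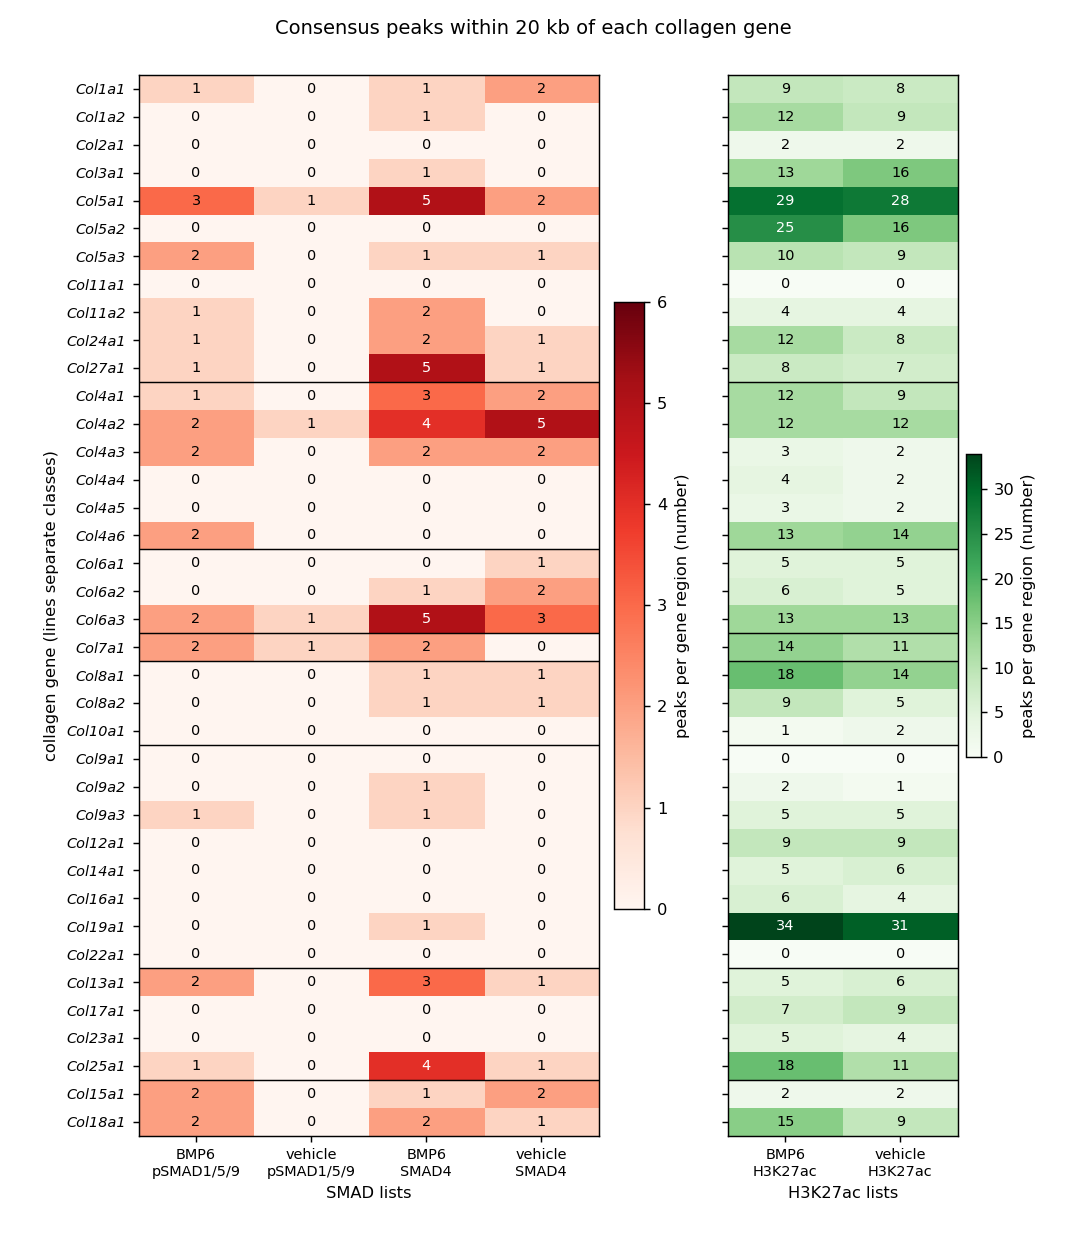
Number of consensus peaks within 20 kb of each of the 38 collagen genes (rows, grouped by class) in the 4 SMAD lists (left, red scale) and the 2 H3K27ac lists (right, green scale). Col5a1 and Col19a1 have the most H3K27ac peaks, whereas Col11a1, Col9a1 and Col22a1 have none in any list.

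In total, 28 pSMAD1/5/9 peaks lay at collagen genes after BMP6 and 4 in control cells, with 49 and 29 peaks for SMAD4. Most were not promoter peaks. Within 2 kb of the gene's own TSS, pSMAD1/5/9 was listed at 3 collagen genes after BMP6 (7.89%, 2.72 to 20.8%, against 12% of all genes and 14.0% of those of similar length) and SMAD4 at 5 (13.2%, 5.75 to 27.3%, against 17.8% and 22.2%). Of the 28 pSMAD1/5/9 peaks, 3 touched the TSS window of a collagen gene, 15 lay elsewhere in the gene body and 10 outside it. By the annotation of all protein-coding genes, 53.6% of the 28 were intronic and 17.9% intergenic, compared with 28.3% and 32.8% of the whole list, where regions chosen around genes hold less intergenic sequence by construction. For 9 of the 28 the nearest TSS belonged to a gene other than a collagen, so a peak within 20 kb need not belong to the collagen gene.

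With 1 exception, these peaks were not among the strongest of their list. The median rank of the 28 peaks stood at 50.4% of the pSMAD1/5/9 list, 1 of them was in the strongest 10%, and 14 passed the stricter IDR of 0.01, as did 50.1% of the whole list. IDR, the irreproducible discovery rate, measures how consistently a peak ranks in both replicates. The 49 SMAD4 peaks had a median rank at 57.8% of their list, with 2 in the strongest 10%, and 42.9% passed the stricter IDR, next to 49.2% of the list.

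**Figure D3:**
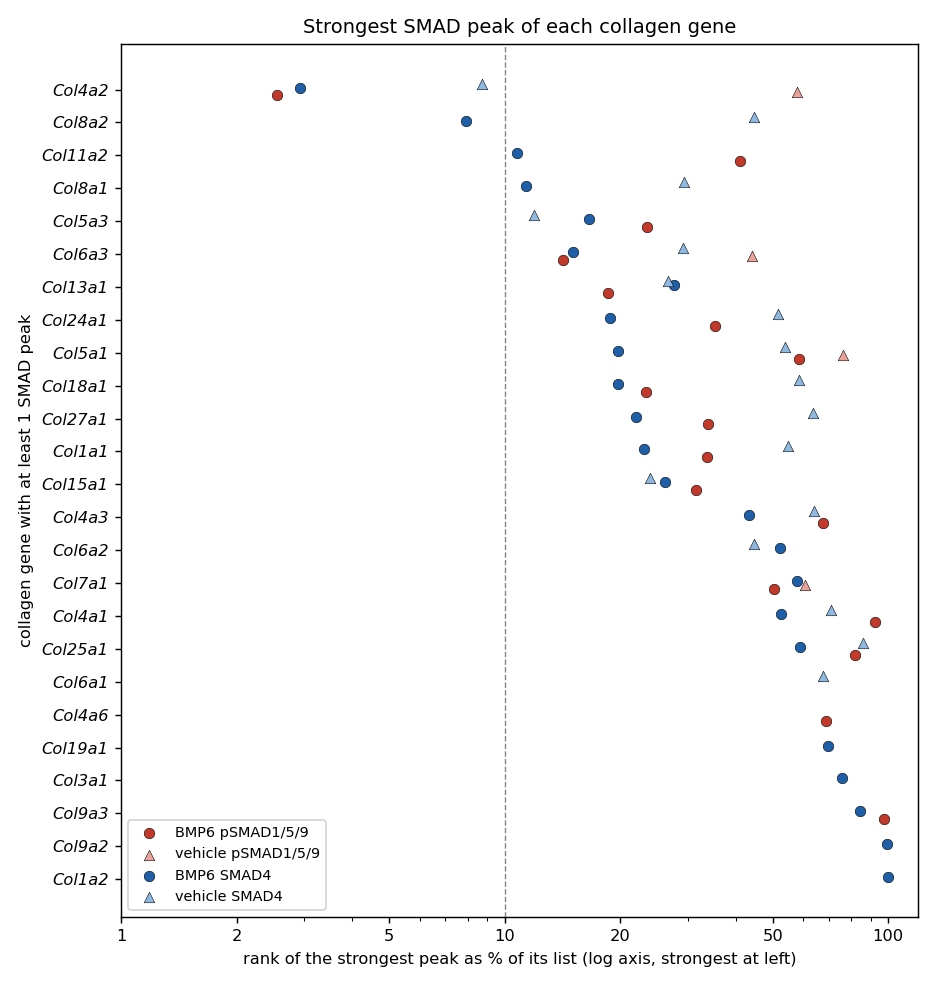
Rank of the strongest peak of each collagen gene in the 4 SMAD lists, as a percentage of the list (horizontal log axis, strongest at left), for the 25 genes with at least 1 SMAD peak. Red marks are pSMAD1/5/9 and blue marks SMAD4, with circles for BMP6-stimulated and triangles for control cells, and the dashed line at 10% has Col4a2 and, for SMAD4 after BMP6, Col8a2 to its left.

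The basement membrane collagens gave the strongest site. Col4a2 (ENSMUSG00000031503.15, chr8:11362509-11499287, plus strand) encodes the α2 chain of type IV collagen and lies head to head with Col4a1, which encodes the α1 chain. In intron 4 of Col4a2, 70.1 kb from the TSS, the peak at chr8:11431891-11433084 ranked 187 of 7339 for pSMAD1/5/9 after BMP6, with signals of 51695 and 22357 in the replicates, which ranked it 109 and 543. It was listed for all 3 antibodies in both conditions. In the control pSMAD1/5/9 list it ranked 548 of 949. For SMAD4 it ranked 376 after BMP6 (replicate signals of 30357 and 16837) and 750 in control cells (19595 and 7774, with replicate ranks of 544 and 1465). A few kilobases further into intron 4, at chr8:11436901-11437881, lay another pSMAD1/5/9 peak of BMP6-stimulated cells with rank 1053. There SMAD4 was listed in control cells (rank 1230) but not after BMP6.

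The other type IV genes had weaker peaks or none. Col4a1 had a pSMAD1/5/9 peak in intron 2 after BMP6 at rank 6806 of 7339, and this was the only one of the 28 sites without H3K27ac in control cells. Col4a3 had 2 sites, one in intron 1 (rank 4968) and the other at the TSS of its neighbour Mff (rank 6021), and both also carried SMAD4 in both conditions. At Col4a6, on the X chromosome, the 2 pSMAD1/5/9 peaks ranked 5041, with 6795 and 3115 in the replicates, and 6124. In the class as a whole, 4 of 6 genes had pSMAD1/5/9 after BMP6 and 1 of 6 in control cells, while SMAD4 was listed at 3 of 6 in each condition. Of all protein-coding genes, 29.1% and 5.97% had pSMAD1/5/9, and 39.3% and 30.8% had SMAD4. The classes hold few genes, and differences between them were not tested.

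Among the 11 fibrillar genes, pSMAD1/5/9 was listed at 6 after BMP6 and 1 in control cells, and SMAD4 at 8 and 5. The shares of all genes were 29.1% and 5.97% for pSMAD1/5/9, and 39.3% and 30.8% for SMAD4. Col1a1 (ENSMUSG00000001506.12, chr11:94827050-94843868), which encodes the α1 chain of type I collagen, had its pSMAD1/5/9 peak 7.19 kb upstream of the TSS, at chr11:94819591-94820370, with rank 2480. SMAD4 was present at the same place in both conditions, at rank 2969 after BMP6 and 4708 in control cells. Col1a2 and Col3a1 had SMAD4 after BMP6 only and no pSMAD1/5/9. Col1a2, for the α2 chain of type I, had a SMAD4 peak 15.9 kb upstream at rank 12817 of 12860, and Col3a1, for type III, had one at its TSS at rank 9721. Both were near the threshold of the list, with −log10 IDR values of 1.32 and 1.53 in lists cut at an IDR of 0.05.

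The type V genes differed from each other. Col5a1 (ENSMUSG00000026837.18, chr2:27776397-27929526), for the α1 chain that is present in most type V collagen, had 3 pSMAD1/5/9 peaks after BMP6. They lay 11.5 kb upstream (rank 4917), at the TSS (rank 5890) and in intron 1, 2.95 kb from the TSS (rank 4295). The site in intron 1 also had pSMAD1/5/9 in control cells (rank 723 of 949) and SMAD4 in both conditions, at rank 2545 after BMP6 (2070 and 4285 in the replicates) and 4628 in control cells (3899 and 5747). At the TSS and the upstream site, SMAD4 was listed after BMP6 but not in control cells. Col5a3, for the α3 chain, had its strongest pSMAD1/5/9 peak at chr9:20723509-20724639, rank 1726, with the summit 2.41 kb inside the gene and replicate ranks of 2363 and 1237. Its edge reached within 2 kb of the TSS, so it was counted as a TSS peak. There SMAD4 ranked 2129 after BMP6 (1841 and 3015 in the replicates) and 1024 in control cells (711 and 2369). Col5a2, for the α2 chain, had no SMAD peak in any list, although it had an H3K27ac TSS peak in both conditions.

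In the remaining fibrillar genes with SMAD peaks, the strongest sites were deep in introns or next to other genes. The peak in intron 41 of Col27a1 had a pSMAD1/5/9 rank of 2495 and SMAD4 in both conditions. Col27a1 also had weaker SMAD4 peaks after BMP6, among them one in intron 2, 6.21 kb from its TSS (rank 9386). Col24a1 had a site in intron 24, 128 kb from the TSS, with a SMAD4 rank of 2419 after BMP6 and 4413 in control cells. Its pSMAD1/5/9 rank was 2598, for which the replicates gave 4288 and 1411. At Col11a2, the stronger of 2 SMAD4 peaks ranked 1386 after BMP6, without a control peak. Its summit, however, was 61 bp from the TSS of Slc39a7, a zinc transporter gene. The pSMAD1/5/9 peak over it (rank 3019, with 2181 and 4819 in the replicates) lay 112 bp from the TSS of Rxrb.

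**Figure D4:**
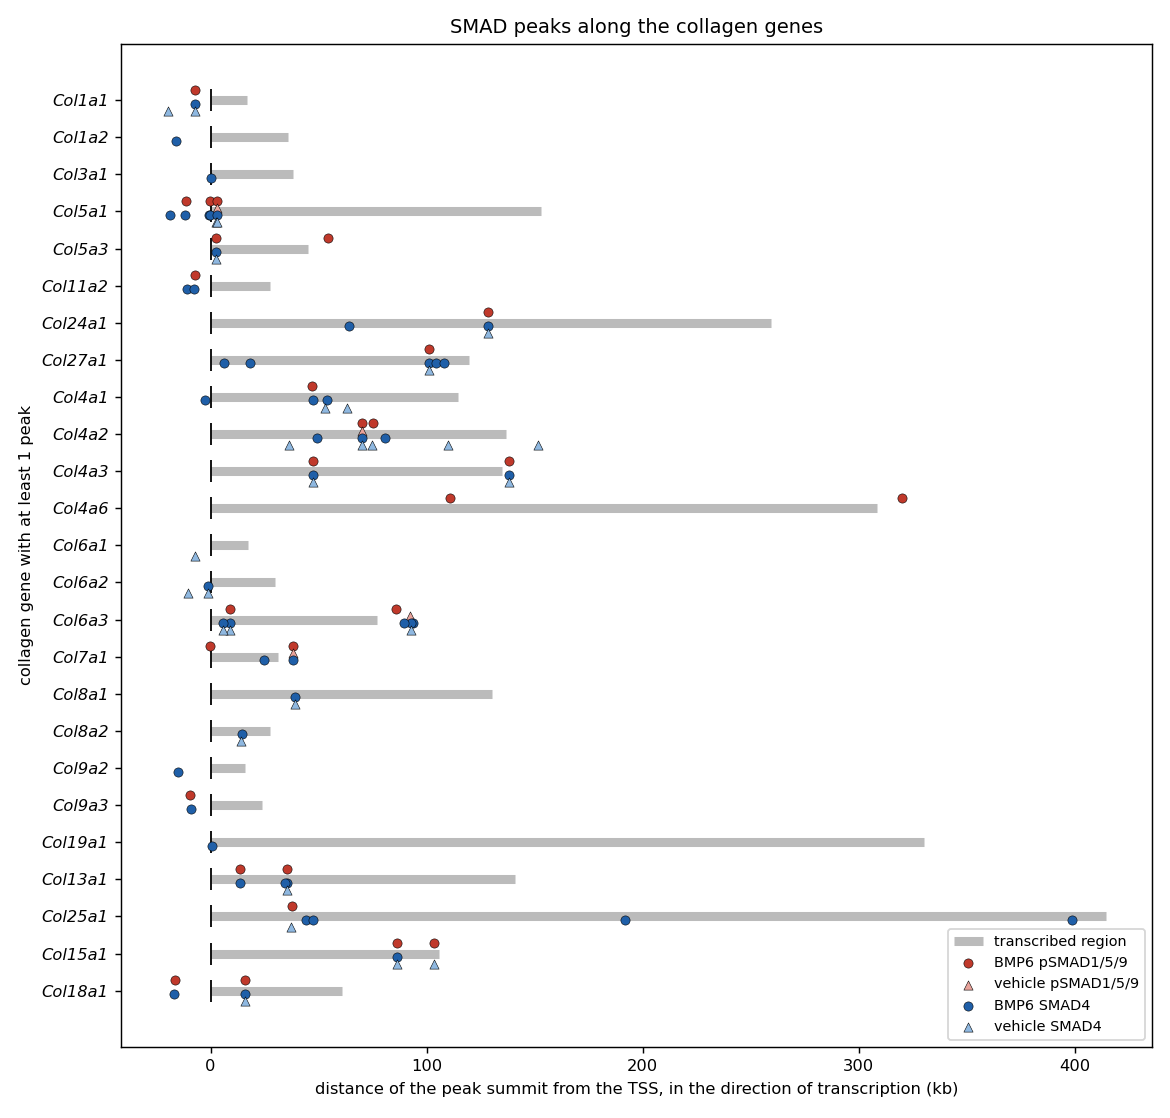
Positions of SMAD peak summits along the 25 collagen genes with at least 1 peak, in kb from the TSS in the direction of transcription (horizontal axis). Grey bars are the transcribed regions, circles BMP6-stimulated and triangles control cells, red pSMAD1/5/9 and blue SMAD4. Most summits lie within or outside the gene at a distance from the TSS, and at Col4a2 marks of all 4 lists stand above each other near 70.1 kb.

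Type VI collagen, a constituent of the matrix around muscle fibers, is encoded by Col6a1, Col6a2 and Col6a3. Col6a3 (ENSMUSG00000048126.18, chr1:90694582-90771780, minus strand) had the second highest pSMAD1/5/9 rank of the collagen genes, 1040, at chr1:90762322-90763062 in intron 1. The replicates placed it at 2049 and 430. SMAD4 was present there in both conditions, at rank 1936 after BMP6 and 3635 in control cells. About 92.4 kb from its TSS, downstream of the gene, Col6a3 also had the strongest control pSMAD1/5/9 peak of any collagen gene (rank 419 of 949). It had SMAD4 in both conditions and no pSMAD1/5/9 peak after BMP6. Col6a1 and Col6a2 had no pSMAD1/5/9 peak. Near Col6a2, SMAD4 was listed 1.31 kb before the TSS in both conditions, and the SMAD4 peak 7.22 kb upstream of Col6a1 was listed in control cells only (rank 5796 of 8577).

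Col7a1, which encodes the anchoring fibrils of the skin, had 2 pSMAD1/5/9 peaks after BMP6. The one at its own TSS was weak (rank 6768). The other, which was also in the control list (rank 577), lay 71 bp from the TSS of Pfkfb4, a neighbouring gene for an enzyme of sugar metabolism. Col8a1 and Col8a2, for the short-chain network collagen of type VIII, had SMAD4 but no pSMAD1/5/9. The Col8a2 peak in intron 2, at 14.4 kb from the TSS, ranked 1020 after BMP6, with replicate ranks of 1048 and 1070, and 3834 in control cells. In intron 1 of Col8a1, the peak at 39.2 kb ranked 1466 after BMP6 (1685 and 1331 in the replicates) and 2525 in control cells (3359 and 1608).

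The fibril-associated collagens sit on the surface of fibrils. After BMP6, 1 of 8 had pSMAD1/5/9 and 3 of 8 had SMAD4, compared with 29.1% and 39.3% of all genes. None had either in control cells, where 5.97% and 30.8% of all genes had a peak. The single pSMAD1/5/9 peak was assigned to Col9a3, at rank 7142 of 7339, and was 318 bp from the TSS of Ogfr. Col19a1 had a SMAD4 peak at its TSS (rank 8979) and Col9a2 one 15.2 kb upstream (rank 12774 of 12860). Among the transmembrane collagens, 2 of 4 had pSMAD1/5/9 after BMP6, compared with 29.1% of all genes. Col13a1, a membrane collagen of the neuromuscular junction, had a peak in intron 2 (chr10:61779271-61779900, rank 1368) with SMAD4 in both conditions and a weaker one in intron 1 (rank 5829). The SMAD4 rank in intron 2 was 3543 after BMP6, at 27.6% of the list, with 3558 and 3649 in the replicates. In control cells it was 2289, at 26.7% of the list, with 1725 and 3874 in the replicates. Col25a1 had 1 peak, at rank 6023. Both multiplexins, the basement membrane collagens from which antiangiogenic fragments are released, had pSMAD1/5/9 after BMP6 and not in control cells. Of all genes, 23.5% had pSMAD1/5/9 after BMP6 and not in control cells. At Col18a1 it lay in intron 1 (chr10:76932991-76934286, rank 1719), and 16.6 kb upstream (rank 4407), where SMAD4 was listed after BMP6 only. SMAD4 in intron 1 ranked 2550 after BMP6, at 19.8% of the list, with 1955 and 4919 in the replicates. In control cells it ranked 5007, at 58.4% of the list, with 3735 and 7609 in the replicates. Whether SMAD4 differed there between the conditions was not tested. At Col15a1, pSMAD1/5/9 lay in intron 28 (chr4:47293741-47294400, rank 2310, with 1698 and 3848 in the replicates) and intron 39 (rank 3691). SMAD4 was listed at both sites in control cells but only at the site in intron 28 after BMP6. The nearest TSS to both was that of the neighbouring gene Tgfbr1, at 59241 and 42120 bp.

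The pSMAD1/5/9 peaks at collagen genes overlapped the other lists about as often as those of the whole list. Of the 28 pSMAD1/5/9 peaks at collagen genes after BMP6, 3 (10.7%, Wilson 95% interval 3.71 to 27.2%) overlapped a control pSMAD1/5/9 peak by at least 1 bp, compared with 11.4% of the whole list. With SMAD4 after BMP6, 20 overlapped (71.4%, 52.9 to 84.7%), compared with 73.2%, and with SMAD4 in control cells 15 (53.6%, 35.8 to 70.5%), compared with 57.2%. All 28 overlapped H3K27ac after BMP6, as did 98.2% of the list. Of the 49 SMAD4 peaks after BMP6, 43 overlapped H3K27ac in the same cells (87.8%, 75.8 to 94.3%). The share of their list, 95.7%, was above the interval. The 6 without H3K27ac lay in introns of Col25a1, Col27a1 and Col4a2. Between the conditions, 17 of 49 SMAD4 peaks after BMP6 (34.7%, 22.9 to 48.7%) overlapped a control SMAD4 peak, where the whole list gave 45.5%. Of the control SMAD4 peaks, 18 of 29 (62.1%, 44.0 to 77.3%) overlapped one after BMP6, where the list gave 69.7%.

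Merging the peaks of the 4 SMAD lists gave 65 sites at collagen genes. The largest group was SMAD4 after BMP6 alone, with 24 sites (36.9%, compared with 32.1% of 16417 merged sites in the genome). A further 10 sites (15.4%, compared with 17.7%) had pSMAD1/5/9 and SMAD4 after BMP6 on top of SMAD4 in control cells, and 7 (10.8%, compared with 9.00%) had pSMAD1/5/9 and SMAD4 after BMP6 with neither in control cells. Only SMAD4 in control cells was found at 8 sites (12.3%, compared with 12.5%). Of the 65 sites, 7 had no H3K27ac in either condition (10.8%, 5.32 to 20.6%), compared with 5.03% of all merged sites, which is just below the interval.

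Motif content was counted in 200 bp windows around the 28 pSMAD1/5/9 summits. The E-box CAGCTG was in 13 windows (46.4%, 29.5 to 64.2%), compared with 31.1% of all 7339 windows of the list. The SMAD motif GGAGCC or GGCGCC was in 6 (21.4%, 10.2 to 39.5%), compared with 30.2%, and the AP-1 motif also in 6, compared with 15.5%. The RBPJ motif was again in 6 windows, at 5 genes (Col5a3, Col15a1, Col1a1, Col4a3 and Col13a1), compared with 8.45% of the list, which is below the interval. In 400 bp windows the share with the RBPJ motif was 32.1% (17.9 to 50.7%), compared with 16.8%. For the 49 SMAD4 peaks after BMP6 it was 12.2% (5.73 to 24.2%), compared with 8.63%. The palindrome GTCTAGAC was in 1 window, at Col4a3 (3.57%, 0.633 to 17.7%). Its share of the list, 0.518%, was also below the interval, but in 400 bp windows the list share of 0.845% was inside it. Among the 29 control SMAD4 peaks, 9 held the AP-1 motif (31.0%, 17.3 to 49.2%), and the list share of 14.8% was again below the interval. The intervals are not corrected for the number of motifs and lists compared. Of the 28 pSMAD1/5/9 windows, 6 held none of the 5 motifs, a share not counted for the whole list. The median GC content was 54.0% in these windows and 56.0% in the list.

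H3K27ac had a TSS peak at 22 collagen genes after BMP6, or 57.9% (42.2 to 72.1%), against 55.1% of all genes and 66.5% of those of similar length. In control cells it had one at 20, or 52.6% (37.3 to 67.5%), against 53% and 64.5%, so that the collagen genes were below the genes of similar length in both conditions, with both shares inside the intervals. The genes with a TSS peak in control cells all had one after BMP6 as well. The others were Col18a1 and Col24a1, and the peaks that lay over their TSS were weak, with ranks of 64763 and 52732 of 78050. Another TSS peak of Col18a1 after BMP6 ranked higher, at 20984, with its summit 2.74 kb upstream. That peak overlapped a control H3K27ac peak, which did not reach within 2 kb of the TSS. The strongest H3K27ac peak at a collagen TSS was that of Col5a1, named here with the next few genes after their values were seen. Its TSS peak was 8960 bp wide and ranked 1200 after BMP6, and was 7600 bp wide and ranked 954 of 67790 in control cells. High ranks at the TSS in both conditions were also found at Col5a2 (3893 and 2276), Col19a1 (3364 and 2394), Col1a2 (5475 and 3773) and Col3a1 (6266 and 2830). Over the whole gene with flanks, H3K27ac peaks covered 45.5% of Col5a1 after BMP6 and 37.9% in control cells, and 42.3% and 37.7% of Col3a1. No H3K27ac peak was listed at Col11a1, Col9a1 and Col22a1, genes that are typical of cartilage or of tissue junctions, and none at the TSS of Col2a1, the main cartilage collagen.

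A SMAD peak within 20 kb of a gene and an H3K27ac peak at its TSS did not always go together. Of the 24 genes with pSMAD1/5/9 or SMAD4 after BMP6, 17 had an H3K27ac TSS peak in the same cells and 7 did not, among them Col8a2, Col13a1 and Col15a1. The SMAD sites of these named genes were acetylated all the same. Each of their SMAD peaks after BMP6 overlapped an H3K27ac peak away from the TSS. Conversely, 5 genes had an H3K27ac TSS peak and no SMAD peak after BMP6. The same splits were not counted over all protein-coding genes, so whether they are usual cannot be read from these counts. At 21 genes more H3K27ac peaks were listed after BMP6 than in control cells, at 6 fewer, and at 11 as many, in a comparison of 343 with 295 peaks. The whole lists differ in the same direction. Of the 343 peaks, 72.3% (67.3 to 76.8%) overlapped a control H3K27ac peak, compared with 72.0% of the list, and of the 295 control peaks 86.4% (82.1 to 89.9%) overlapped one after BMP6, compared with 86.8%.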

How the data were processed

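Peak lists of 12 CUT&Tag samples from MuSCs were used, grouped by antibody and treatment as labelled. The authors brought the libraries of an antibody to equal depth, used Bowtie2 2.5.4 for alignment to GRCm39 and called peaks per biological replicate with JAMM. They merged both replicates with IDR at a threshold of 0.05. The deposited signal is a score from the authors' peak caller without a fixed range, so it was compared only within a list. In each of the 6 lists it was the sum of both replicate values. Reproducibility is deposited by the authors as −log10 of the IDR. The replicate columns carry no replicate number.

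Peaks were converted to 1-based coordinates and set against GENCODE canonical transcripts with 20 kb flanks. At least 1 bp of overlap counted, and a peak within 2 kb of a TSS was at the TSS. All 6 lists lay inside the chromosomes of GRCm39. Python 3.11.15, pandas 2.3.3, numpy 2.4.6, pysam 0.24.0 and samtools 1.23.1 were used, and intervals are Wilson's at 95%. Tested on simulated data, all 300 planted overlaps of 1 bp were recovered, and all 700 peaks that ended 1 bp short were left out.

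With 1 consensus list per antibody and condition, no test between conditions was made and no p-value is given. The 8 genes with the strongest pSMAD1/5/9 and SMAD4 peaks after BMP6, the genes with a control pSMAD1/5/9 peak, those with an H3K27ac TSS peak in 1 condition, and those without SMAD peaks were named by rule, and other genes after their values were seen. The collagen genes and the lists were chosen with earlier results of these data known. The samples without primary antibody were not analysed here.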

Additional observations from a re-analysis of the deposited data

How the results depend on the processing

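Of 94 values recomputed under other settings, 65 stayed within the limits set for them and 29 moved. The cause was not tested. At an IDR of at most 0.01, pSMAD1/5/9 after BMP6 was left at 10 genes with 14 peaks, control pSMAD1/5/9 at 0 genes with 0 peaks and control SMAD4 at 7 genes with 10 peaks, and SMAD4 after BMP6 kept 21 peaks. Of the whole pSMAD1/5/9 lists, 50.1% of peaks after BMP6 passed this IDR, but only 14.9% of those in control cells. For SMAD4 these shares were 49.2% and 41.7%. No share of all genes is given at this IDR. With both lists at that IDR, the share of pSMAD1/5/9 peaks over a control pSMAD1/5/9 peak was 0%, that over control H3K27ac 100%, that of control SMAD4 over SMAD4 after BMP6 80.0%, that of SMAD4 after BMP6 over H3K27ac 100%, and that of H3K27ac after BMP6 over control H3K27ac 79.4%. When at least 50% of both peaks had to overlap, 14.3% of pSMAD1/5/9 peaks lay over H3K27ac in either condition and 8.16% of SMAD4 peaks, while H3K27ac shares were 59.2% and 68.8%. H3K27ac peaks are wider than SMAD peaks, with medians of 1470 bp against 582 bp for pSMAD1/5/9. Within 5 kb of the gene, control pSMAD1/5/9 had 2 genes and 2 peaks. Within 2 kb of the TSS, the numbers of genes were 3 and 0 for pSMAD1/5/9, 5 and 2 for SMAD4, and 22 and 20 for H3K27ac, after BMP6 and in control cells. Of other genes between the 25th and 75th percentile of length, 87.9% and 86.8% had H3K27ac. Weighted over 3 length classes (limits of 30 and 100 kb), a setting chosen after seeing the data, the shares were 82.7% and 81.6% for H3K27ac and 32.6% for pSMAD1/5/9 after BMP6. Counts of genes stayed within 1.5 times when the summit, all basic transcripts, autosomal genes or the nearest TSS decided. The nearest TSS gave 18 and 3 genes for pSMAD1/5/9, 21 and 18 for SMAD4, and 34 and 32 for H3K27ac.

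Leaving out a replicate was possible only for ranks, because the lists are a consensus: of 122 ranks from 1 replicate column, 103 were within 1.5 times of the reported rank. No paired analysis was possible because the replicate columns carry no number. The lists hold no read counts, so binding below the threshold cannot be read from them.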

Other observations

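The proteins that fold, cross-link or recognise collagen were looked up in the same lists. Of 32 genes for collagen biosynthesis and cross-linking, 16 had a pSMAD1/5/9 peak within 20 kb after BMP6 and 3 in control cells, and SMAD4 was listed at 20 and 21. Their median length was 27.6 kb, and of all protein-coding genes 29.1%, 5.97%, 39.3% and 30.8% had a peak in these 4 lists. H3K27ac had a peak within 2 kb of the TSS at 25 of the 32 after BMP6 and 24 in control cells, and at 55.1% and 53% of all genes. Loxl1, a lysyl oxidase-like enzyme that cross-links elastin and collagen, had 6 pSMAD1/5/9 peaks after BMP6, the strongest at rank 84 of 7339. Its best SMAD4 peaks ranked 8 of 12860 after BMP6 and 4 of 8577 in control cells. Serpinh1, the collagen chaperone HSP47 of the endoplasmic reticulum, had a pSMAD1/5/9 peak at rank 160 of 7339 after BMP6 and 62 of 949 in control cells. P3h3, a prolyl hydroxylase family member, had one at rank 109 of 7339 after BMP6 and 83 of 949 in control cells. Neither gene had a pSMAD1/5/9 peak within 2 kb of its TSS. Lox, the lysyl oxidase that starts cross-linking, had a pSMAD1/5/9 peak at its TSS after BMP6 (rank 2270) and none in control cells. These genes were named after their ranks were seen.

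Of 12 collagen receptors, 5 had pSMAD1/5/9 after BMP6 and 2 in control cells, and 8 and 6 had SMAD4. The shares of all protein-coding genes were 29.1% and 5.97% for pSMAD1/5/9, and 39.3% and 30.8% for SMAD4. With a median length of 68.9 kb the receptor genes are longer than the median protein-coding gene (16274 bp), and no comparison with genes of their own length was made. Ddr1, a receptor tyrosine kinase for collagen, had pSMAD1/5/9 at rank 261 of 7339 after BMP6 and 247 of 949 in control cells. Its best SMAD4 peaks ranked 84 of 12860 after BMP6 and 308 of 8577 in control cells. Adgrg1, an adhesion receptor for type III collagen, had pSMAD1/5/9 after BMP6 alone, at rank 137. Calcr, the calcitonin receptor, through which type V collagen acts on quiescent MuSCs, had a pSMAD1/5/9 peak at rank 4323 and a SMAD4 peak at rank 5624 after BMP6, and neither in control cells. Among 6 collagen genes outside the 38, Col26a1 was the one with pSMAD1/5/9, at rank 479 of 7339 after BMP6 and 323 of 949 in control cells. Near the 3′ end of Col4a6, a control H3K27ac peak 43000 bp wide ranked 8 of 67790, and the BMP6 peak over it was 31710 bp wide and ranked 1728 of 78050. The nearest TSS was that of Atg4a, at 58640 bp.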
